A study of Mus musculus with 16 samples.

Results

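The hypoxia response and glycolysis genes comprised 38 listed genes: the transcription factor subunit Hif1a, 22 genes of glucose uptake and glycolysis with its regulators and exits, and 15 further targets of hypoxia-inducible factors. Members were taken by gene symbol, whatever values they had, and the brightest probe over all arrays stood for each gene. A probe was found for 35 of the 38, among 16593 measured genes, while Gpi1, Eno1 and Ankrd37 were not analysed here. Of the 35, 20 belong to glucose uptake and glycolysis and 14 to the other targets.

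RNA came from mouse bone marrow stromal cells cultured for 7 days under osteogenic conditions, on 8 wild type and 8 Hdac3 CKO arrays. In the CKO cultures Osterix1-Cre, a recombinase driven by an osteoblast lineage promoter, deletes the histone deacetylase gene Hdac3. Cells outside that lineage can therefore keep the gene. All cultures had a mixed CD1/C57BL6 background. Neither the number of animals nor any pooling is stated, nor whether each array is a separate culture. A p-value therefore covers the spread between arrays alone, which may be technical. Arrays are named by genotype and title number (WT5, KO7). The numbers fall into 5 runs of neighbours: run 1 holds 5 and 7, run 2 holds 13 to 16, run 3 holds 21 to 24, run 4 holds 30 and 32, and run 5 lies between 42 and 47. Each run holds equal numbers of both genotypes, 1 array each in runs 1 and 4 and 2 each in the others. What a title number marks is not stated.

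Hypoxia-inducible factors (HIFs) are pairs of an oxygen-sensitive subunit, such as the product of Hif1a, and a stable partner. At normal oxygen, prolyl hydroxylases mark the sensitive subunit for destruction, so the factor is controlled mainly at the protein. When it accumulates, it binds a short core, A or G followed by CGTG, near genes for glucose uptake, glycolysis, lactate production, blood vessel growth and collagen hydroxylation. Osteoblasts draw much of their energy from glycolysis that ends in lactate, and collagen-making cells need the prolyl and lysyl hydroxylases among these targets.

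The promoters of 6 members are shown because the highest correlations over all arrays described further on were among Pfkl, P4ha2, Egln3 and Pdk1, and between Ldha and Gapdh. They were chosen after those values were seen. The sequences are from RefSeq (GRCm38.p6) and run 5′ to 3′ on the gene's strand. Each spans 250 bases before and 50 bases after the transcript start, so the last 50 bases are transcribed. Only the first promoter listed for a gene was used, here and in the counts below, so any other start of a gene was not searched. Capitals mark ACGTG or GCGTG on either strand, and a CACGTG counts on both strands. The windows are chr10:78009758-78010057 (minus strand) for Pfkl, a liver-type phosphofructokinase, and chr11:54100674-54100973 (plus strand) for P4ha2, a collagen prolyl hydroxylase subunit. They are chr12:54203825-54204124 (minus strand) for Egln3, a HIF prolyl hydroxylase, and chr2:71872974-71873273 (plus strand) for Pdk1, a pyruvate dehydrogenase kinase. They are chr7:46845554-46845853 (plus strand) for Ldha, lactate dehydrogenase A, and chr6:125165724-125166023 (minus strand) for Gapdh, glyceraldehyde-3-phosphate dehydrogenase.
Pfkl: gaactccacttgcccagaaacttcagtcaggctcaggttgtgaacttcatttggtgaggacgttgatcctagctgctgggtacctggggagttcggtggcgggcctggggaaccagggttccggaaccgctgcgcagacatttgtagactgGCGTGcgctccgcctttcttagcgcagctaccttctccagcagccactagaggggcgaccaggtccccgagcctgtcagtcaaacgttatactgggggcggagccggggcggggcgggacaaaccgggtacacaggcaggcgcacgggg
P4ha2: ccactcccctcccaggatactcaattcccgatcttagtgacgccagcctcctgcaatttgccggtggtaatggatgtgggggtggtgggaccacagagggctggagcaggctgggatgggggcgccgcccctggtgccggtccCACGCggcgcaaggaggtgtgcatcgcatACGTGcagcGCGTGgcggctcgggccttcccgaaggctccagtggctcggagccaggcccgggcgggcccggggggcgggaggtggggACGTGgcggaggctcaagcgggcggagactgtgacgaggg
Egln3: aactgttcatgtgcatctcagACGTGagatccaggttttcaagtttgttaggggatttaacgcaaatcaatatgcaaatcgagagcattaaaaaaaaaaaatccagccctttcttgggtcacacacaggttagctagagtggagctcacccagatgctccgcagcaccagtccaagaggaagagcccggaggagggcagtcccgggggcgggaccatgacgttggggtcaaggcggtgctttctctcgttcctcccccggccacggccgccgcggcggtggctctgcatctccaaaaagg
Pdk1: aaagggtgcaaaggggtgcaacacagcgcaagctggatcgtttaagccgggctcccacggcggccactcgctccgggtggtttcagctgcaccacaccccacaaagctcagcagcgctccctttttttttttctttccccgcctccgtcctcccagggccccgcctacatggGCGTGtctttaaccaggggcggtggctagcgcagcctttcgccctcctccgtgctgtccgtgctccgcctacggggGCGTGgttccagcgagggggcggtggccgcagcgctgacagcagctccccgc
Ldha: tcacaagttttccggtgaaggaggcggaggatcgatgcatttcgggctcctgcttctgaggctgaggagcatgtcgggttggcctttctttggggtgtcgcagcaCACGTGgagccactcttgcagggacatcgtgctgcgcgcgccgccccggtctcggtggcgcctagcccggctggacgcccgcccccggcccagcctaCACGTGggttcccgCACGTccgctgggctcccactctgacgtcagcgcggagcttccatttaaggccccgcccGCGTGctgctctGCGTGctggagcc
Gapdh: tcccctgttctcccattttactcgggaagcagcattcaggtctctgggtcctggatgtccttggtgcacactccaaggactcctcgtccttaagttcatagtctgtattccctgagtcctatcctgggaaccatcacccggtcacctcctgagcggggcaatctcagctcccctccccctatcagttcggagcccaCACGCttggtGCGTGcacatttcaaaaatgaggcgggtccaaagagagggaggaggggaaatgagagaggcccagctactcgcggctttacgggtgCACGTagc

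The Ldha window held 7 matches, the P4ha2 window 4, the Gapdh window 3, the Pdk1 window 2, and the Pfkl and Egln3 windows 1 each. The table held a promoter for 31 of the 35 members, and Ndrg1, Slc2a3, Bhlhe40 and Plod2 had none. At least 1 match stood in 24 of the 31 (77.4%). Over all 27025 promoters of the same length the share was 43.8%, and over the 7204 promoters of genes brighter than the median probe it was 63.2%. Mean GC content was 61.8% in the members, 53.6% in all promoters and 60.4% in those of the brighter genes. Windows without a match belonged to Hk1, Aldoa, Tpi1, Eno2, Pkm, Vegfa and Mxi1. A match is a description of letters and not evidence of binding.

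Several facts of these arrays stood beside all later results. Precision is limited by how many arrays there are. Hdac3 had a mean log2 intensity of 10.42 ± 0.085 in wild type and 10.25 ± 0.077 in CKO cultures (SD, n = 8 arrays each). The exact two-sided permutation test gave an unadjusted p of 0.00249. In the test over all probes used for the members, Hdac3 did not pass (limma adjusted p = 0.932, and 0.162 with the runs as a block). Its CKO mean was lower in 5 of 5 runs, by -0.32 in run 2 but -0.02 in run 5, and the genotypes overlapped. The 7 of 8 osteoblast markers measured (Col1a1, Col1a2, Sp7, Ibsp, Bglap, Alpl and Sparc) were brighter than the median probe, as were the 12 of 14 macrophage markers measured, Lyz2 and C1qb among them. The mean of the macrophage list was 9.83 on WT13 and 9.90 on WT14, against 10.67 to 11.54 on the other arrays. Its marker Fcer1g read 6.20 and 6.12 on WT13 and WT14 and 11.73 to 13.24 elsewhere, and without Fcer1g the mean of the other 11 was 10.15 and 10.24 on WT13 and WT14 and 10.48 to 11.43 elsewhere. The mean of the osteoblast list was 12.33 and 12.56 on WT13 and WT14, 12.01 and 11.86 on KO15 and KO16, and 10.60 to 11.64 elsewhere. The mean of the 7 adipocyte markers was 9.98 and 9.90 on KO15 and KO16, and 8.78 and 8.76 on WT13 and WT14. Elsewhere it was 7.91 to 8.23 on wild type and 8.17 to 8.43 on CKO arrays. In every run it was higher on each CKO array than on each wild type array. Eif2s3y, a Y-linked gene, read 5.89 and 6.17 on WT13 and WT14 and at least 8.28 on every other array. On KO15 and KO16 it read 9.75 and 9.78. Kdm5d, also Y-linked, was lowest on WT13 and WT14 at 6.32 and 6.25, against at least 6.55 elsewhere. Uty, the last of 3 Y-linked genes measured, did not set them apart, at 6.65 and 6.66 against 6.51 to 6.98 elsewhere. Within run 2, genotype and whatever lies behind the Y-linked difference of Eif2s3y and Kdm5d therefore cannot be told apart. Endothelial, neutrophil, erythroid, chondrocyte and skeletal muscle lists had means between 6.31 and 7.87. In such bulk RNA, fewer cells of a type and less RNA per cell cannot be told apart. All 4 arrays of run 2 thus stood apart in their marker levels, and results that rest on them are given with and without that run.

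**Figure D1:**
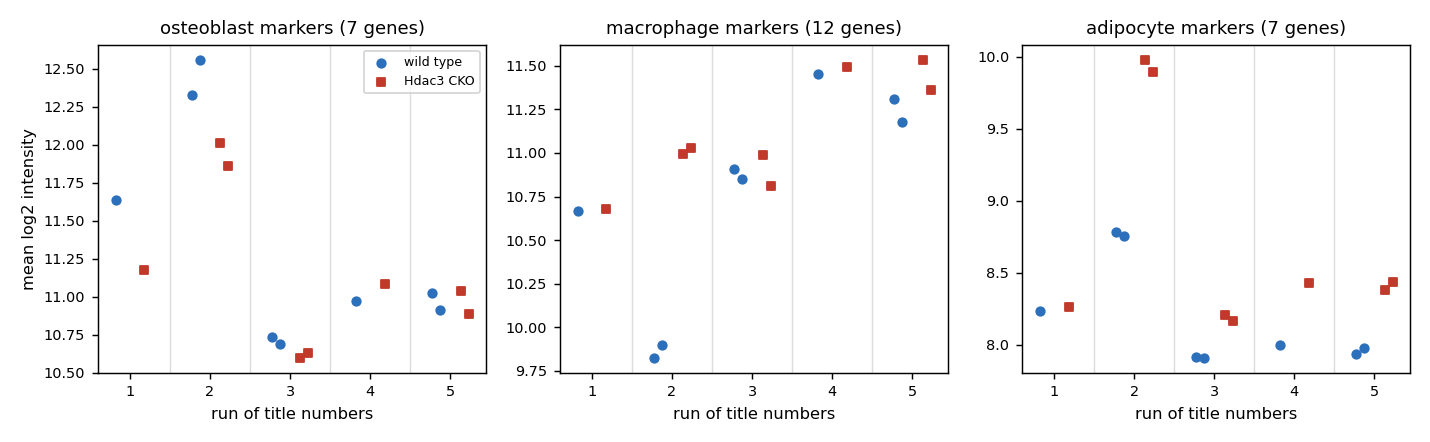
Mean log2 intensity of the osteoblast, macrophage and adipocyte marker lists (vertical axis) on each array, by run of title numbers (horizontal axis), with wild type as circles and Hdac3 CKO as squares. WT13 and WT14 in run 2 are lowest for macrophage markers at 9.83 and 9.90, and KO15 and KO16 are highest for adipocyte markers at 9.98 and 9.90.

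Between genotypes, no hypoxia or glycolysis gene passed the test. With no covariate, limma called 0 of 35 members at an adjusted p under 0.05 and 0% of all 25697 probes, and with the runs as a block it called 0 of 35 against 0.218% of all probes. At an unadjusted p under 0.05 the counts were 2 of 35 without the block, against 4.74% of all probes, and 12 of 35 (34.3%) with it, against 11.2%. That count depends on how the runs enter, since with the runs as a random block it was 5 of 35 (7.95% of all probes) and with run means as 5 pairs 5 of 35 (9.97%). Of the 12, 10 were lower in CKO cultures, where 5.37% of all probes were, and 2 were higher, where 5.81% were. Brighter genes had such a p more often, and 33 of the 35 members are brighter than the median probe. Of the 8828 genes brighter than the median probe, 1665 had an unadjusted p under 0.05 with the runs as a fixed block, 715 lower and 950 higher. The difference, CKO minus wild type on the log2 scale, was below 0 for 24 of the 35 (51.3% of all probes) with a median of -0.03. It ranged from -0.37 for Aldoc to 0.19 for Mxi1, and the median over the 8828 genes brighter than the median probe was 0.00. With the block, the 95% intervals of all 35 lay between -0.54 and 0.36, so none reached a 2-fold change. The readings of the genotypes overlapped for all 35 members, and 0.00778% of all probes had genotypes that did not overlap. The lower readings were concentrated in run 2, as described below, and without that run the median difference was 0.02, with 15 of 35 below 0 and 2 at an unadjusted p under 0.05.

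**Figure D2:**
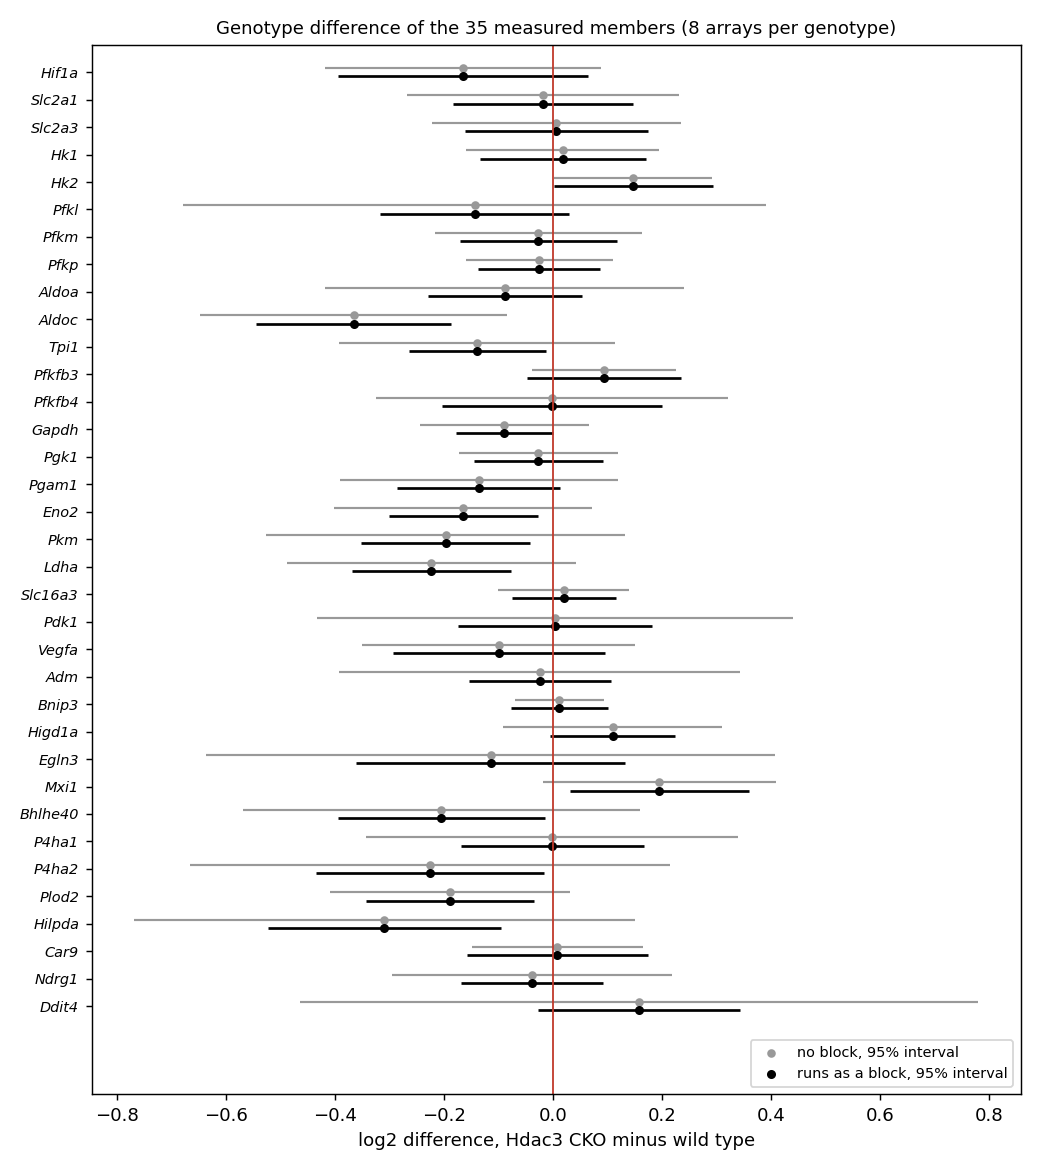
Log2 difference between Hdac3 CKO and wild type cultures (horizontal axis) of the 35 measured members (vertical axis), 8 arrays per genotype. Points are estimates and bars 95% intervals, grey without a covariate and black with the runs as a block; Aldoc lies lowest at -0.37 and Mxi1 highest at 0.19.

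Hif1a itself read 8.20 to 9.002 in wild type cultures (median 8.47) and 8.08 to 8.76 in CKO cultures (median 8.24). The genotypes overlapped widely, and the highest array was WT14. Its difference was -0.16 (block SE 0.11, limma adjusted p = 0.621 with the block). This probe measures the transcript and says nothing of the protein, where the factor is mainly controlled.

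Among the enzymes that split glucose, Aldoc, aldolase C, had the smallest p of all members. It read 6.88 to 7.97 in wild type cultures (median 7.27) and 6.85 to 7.24 in CKO cultures (median 6.97). The highest readings were WT14 at 7.97 and WT13 at 7.85, and the other arrays of both genotypes overlapped. Its difference was -0.37 (fold 0.776, block SE 0.084), with a limma adjusted p of 0.932 without the block and 0.104 with it. Without run 4, as without either of its arrays WT30 and KO32, the difference was -0.42 and the adjusted p 0.0421. In that setting 149 of all 25697 probes passed, against 56 with all arrays. No member passed for genotype in any other setting that was run. Within runs the difference was -0.49, -0.77, -0.25, 0.02 and -0.21 for runs 1 to 5. Hk2, the inducible hexokinase that catalyses the first step of glycolysis, read 11.35 to 11.79 in wild type cultures (median 11.55) and 11.61 to 11.90 in CKO cultures (median 11.68). Its difference was 0.15 (block SE 0.069, limma adjusted p = 0.445 with the block), with CKO higher in 4 of 5 runs. Tpi1, triose phosphate isomerase, read 12.85 to 13.63 in wild type (median 13.50) and 12.83 to 13.61 in CKO cultures (median 13.23), a difference of -0.14 (limma adjusted p = 0.387 with the block). Its other probes, both dimmer, gave -0.11 and -0.24 (limma adjusted p = 0.584 and 0.153 with the block). Pfkfb3, which makes the activator of phosphofructokinase, lay at about the median probe on these arrays, with a difference of 0.09 (limma adjusted p = 0.663 with the block). The remaining upper members (Slc2a1, Slc2a3, Hk1, Pfkl, Pfkm, Pfkp, Aldoa and Pfkfb4) had differences from -0.14 for Pfkl to 0.02 for Hk1.

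The lower part of the pathway, from Gapdh to Pkm, read lower in CKO cultures for all 5 measured members, by -0.03 for Pgk1 to -0.20 for Pkm, and none of them passed. Ldha, which turns pyruvate into lactate, read 12.57 to 13.48 in wild type cultures (median 13.18) and 12.53 to 13.42 in CKO cultures (median 12.89). In each run its CKO mean was below the wild type mean, although the readings of both genotypes overlapped across runs. Its difference was -0.22 (fold 0.857, block SE 0.069, limma adjusted p = 0.213 with the block), and the exact permutation test within runs gave an unadjusted p of 0.0185. Aldoc and Pkm had smaller unadjusted p values in that exact test, 0.00694 and 0.0162. Like Ldha, Gapdh was lower in CKO cultures in 5 of 5 runs, by -0.09 (block SE 0.042, limma adjusted p = 0.444 with the block). Pkm, the pyruvate kinase of most tissues, read 12.36 to 12.97 in wild type cultures (median 12.77) and 11.80 to 12.96 in CKO cultures (median 12.67). The 2 lowest readings were KO15 at 11.93 and KO16 at 11.80, both of run 2, and its adjusted p was 0.301 with the block (limma). Eno2, an enolase, had a difference of -0.16 (limma adjusted p = 0.335 with the block). Slc16a3, the lactate exporter, and Pdk1 had differences of 0.02 and 0.00. Gapdh, Tpi1, Pgam1, Ldha, Pkm and Pgk1 have processed pseudogenes or near-identical copies in the mouse, so the share of signal from such copies is uncertain.

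Among the other hypoxia targets, Hilpda, which inhibits lipolysis at lipid droplets, read 8.96 to 10.66 in wild type cultures (median 10.20) and 9.11 to 10.38 in CKO cultures (median 9.87). Both arrays of run 4, WT30 at 8.96 and KO32 at 9.11, were the lowest, and the genotypes overlapped. Its difference was -0.31 (fold 0.807, block SE 0.10, limma adjusted p = 0.237 with the block), with CKO lower in 4 of 5 runs. The other Hilpda probe gave -0.32 (limma adjusted p = 0.146 with the block). Plod2, a collagen lysyl hydroxylase, read 8.53 to 9.10 in wild type cultures (median 8.91) and 8.30 to 8.94 in CKO cultures (median 8.76), and P4ha2 read 9.27 to 10.46 (median 10.02) and 9.23 to 10.41 (median 9.62). Both had lower CKO means in 5 of 5 runs, with differences of -0.19 and -0.23 and limma adjusted p of 0.323 and 0.401 with the block. P4ha1, another catalytic subunit of collagen prolyl hydroxylase, had a difference of 0.00. Mxi1, a repressor that antagonizes Myc, read 7.53 to 8.25 in wild type cultures (median 7.86) and 7.91 to 8.48 in CKO cultures (median 7.99). It was higher in CKO cultures in 5 of 5 runs, by 0.19 (block SE 0.078, limma adjusted p = 0.343 with the block). In all, 4 members were lower in 5 of 5 runs (5.19% of all probes) and 1 was higher (4.32%). Bhlhe40, a repressor of transcription, was lower by -0.20 (limma adjusted p = 0.406 with the block). Vegfa, the vascular growth factor, Adm, the vasodilator adrenomedullin, Bnip3, Higd1a, Egln3, Car9, Ndrg1 and Ddit4 had differences from -0.11 for Egln3 to 0.16 for Ddit4. Bnip3, a mitophagy receptor, was brighter than 8.43% of probes, so its readings from 6.06 to 6.29 carry little information.

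The difference between genotypes was not alike in all runs. The median member difference was -0.03 in run 1, -0.34 in run 2, 0.02 in run 3, 0.00 in run 4 and 0.02 in run 5. The CKO mean was lower for 31 of 35 members in run 2 (52.6% of all probes), 20 in run 1 (49.1%), 14 in run 3 (50.1%), 18 in run 4 (50.7%) and 17 in run 5 (50.4%). In run 2 both CKO arrays lay below both wild type arrays for 25 members (23.8% of all probes). In run 3 the last count was 5 (16.4% of all probes) and in run 5 it was 6 (15.5%). The largest run 2 differences were -0.78 for P4ha2, -0.77 for Aldoc, -0.68 for Egln3, -0.61 for Pfkl and -0.60 for Pkm. In the other runs P4ha2 differed by -0.05, -0.02, -0.04 and -0.05, and Pfkl by -0.17, -0.01, 0.04 and 0.11. The test of genotype by run called 0 of 35 members at an adjusted p under 0.05 (limma; 0.494% of all probes) and 9 at an unadjusted p under 0.05 (7.62%). The smallest adjusted p values of that test were 0.133 for Pfkl, 0.236 for Pkm and 0.277 for P4ha2.

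Leaving out run 2 turned the sign of 9 members (Slc2a1, Pfkl, Pfkm, Pfkp, Pfkfb4, Vegfa, Adm, Egln3 and P4ha1). Leaving out only WT13 and WT14, without the block, gave a median of 0.03 with 17 of 35 below 0. When the level of the macrophage markers was added as a covariate beside the runs, the median was 0.03 and 14 of 35 were below 0. Without Fcer1g in that list, an alternative chosen after seeing the data, it was 0.06 and 12 of 35 were below 0. With the adipocyte marker level it was 0.08 and 8 of 35 were below 0. That level was higher on CKO than on wild type arrays in every run. Beside the runs it therefore follows genotype, and differences fitted with it cannot separate the marker level from genotype. Neither covariate was chosen independently of these arrays, and the part of either marker list in the result was not tested. Nor was the part of the Y-linked difference, which follows genotype in run 2.

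**Figure D3:**
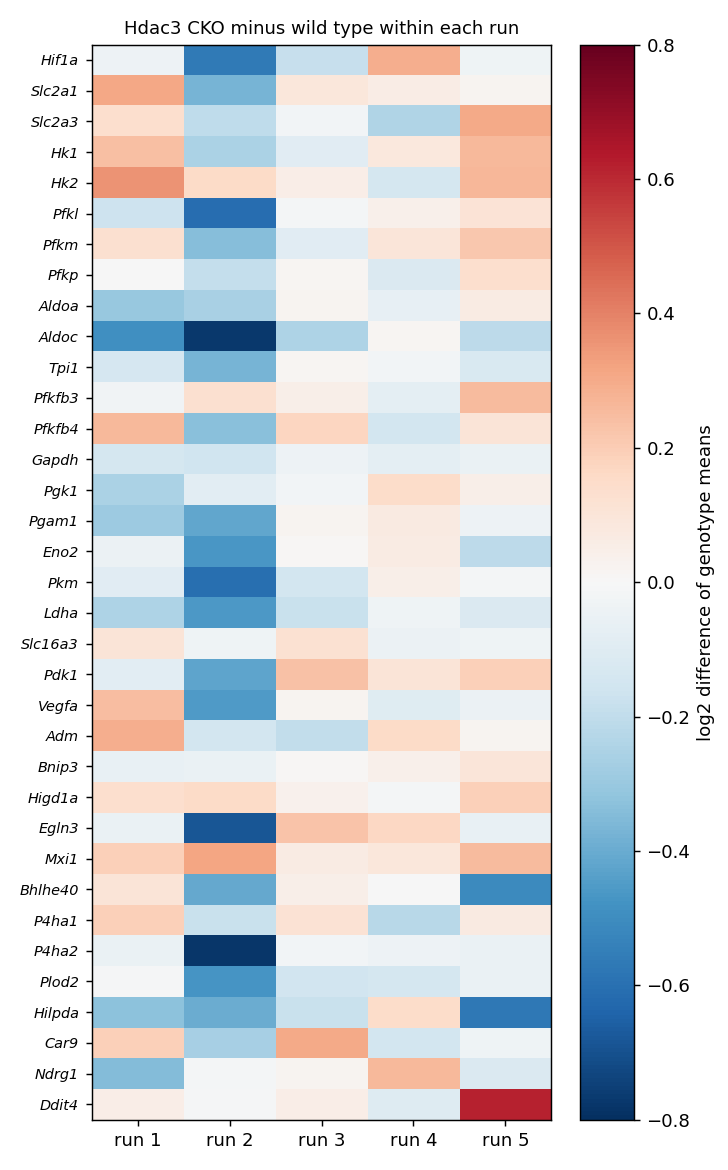
Log2 difference of genotype means, Hdac3 CKO minus wild type, for each member (rows) within each run of title numbers (columns); blue is lower and red higher in CKO. Run 2 is blue for 31 of 35 members, with a median of -0.34, while the medians of the other runs lie between -0.03 and 0.02.

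Between runs, the same genes differed far more than between genotypes. The test of differences between runs called 22 of 35 members (62.9%) at an adjusted p under 0.05 (limma), against 20.1% of all probes and 39.6% of genes brighter than the median probe. These were 12 of 20 glycolysis genes and 10 of 14 other targets, but not Hif1a (adjusted p = 0.482). Without run 2, 20 of the 35 passed, all of them among the 22, against 12.9% of all probes. The median SD over the 16 arrays was 0.25 for members and 0.19 for genes brighter than the median probe. The median range of run means was 0.55 and 0.36. For 15 of the 22 the highest run mean was in run 5. Brighter genes were called more often, and most members are bright.

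The 6 members with the largest SD were Ddit4, Pfkl, Egln3, Hilpda, P4ha2 and Pdk1. Ddit4, a stress-induced inhibitor of mTOR signalling, read 9.19 to 9.79 in runs 1 to 3 and 10.23 to 11.09 in runs 4 and 5. The runs did not overlap between these sets, and its run means were 9.34, 9.66, 9.27, 10.44 and 10.68 (limma adjusted p = 2.33e-06). Adm had the same order of sets, with run means of 8.48, 8.56, 8.70, 9.33 and 9.26 (limma adjusted p = 1.75e-05).

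Pfkl read 11.61 and 11.64 on WT13 and WT14, 11.11 and 10.91 on KO15 and KO16, and 11.63 to 11.82 on the 4 arrays of run 5. On the other 8 arrays it read 10.43 to 10.78, below all arrays of runs 2 and 5. Its run means were 10.69, 11.32, 10.47, 10.63 and 11.71 (limma adjusted p = 6.92e-06), a range of 1.24. Its other probe lay at the median probe and did not pass (adjusted p = 0.317).

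Egln3, which a HIF induces and which in turn helps to degrade it, had run means of 6.94, 7.68, 6.81, 6.92 and 7.87 (limma adjusted p = 0.000541). The other Egln3 probe, dimmer with a mean of 6.17, did not pass (limma adjusted p = 0.714). Pdk1, the pyruvate dehydrogenase kinase gene, had run means of 7.55, 8.16, 7.29, 7.43 and 8.17 (limma adjusted p = 9.59e-05). P4ha2 had run means of 9.75, 9.96, 9.31, 9.53 and 10.34 (limma adjusted p = 0.000533). For Pfkl and these 3 genes, runs 2 and 5 had the highest means and run 3 the lowest.

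Ldha, Tpi1, Gapdh and Pgam1 had another order, with run 4 lowest and run 5 highest. Ldha had run means of 13.06, 13.02, 12.99, 12.55 and 13.32 (limma adjusted p = 0.0028). Tpi1 (adjusted p = 0.000847), Gapdh (adjusted p = 0.00331) and Pgam1, phosphoglycerate mutase (adjusted p = 0.00567), had the same lowest and highest runs. Aldoa, the aldolase of most tissues, had its lowest means in runs 1 and 4 at 11.63 and its highest in run 5 at 12.40 (limma adjusted p = 0.000168). Hilpda was lowest in run 4 at 9.04 and highest in run 1 at 10.36 (limma adjusted p = 0.000432). Eno2 was lowest in run 4 at 7.25 and highest in run 2 at 7.796 (limma adjusted p = 0.00508). Pkm was lowest in run 2 at 12.16 and highest in run 5 at 12.95 (limma adjusted p = 0.000492).

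Slc2a1, the main glucose transporter of many cells, P4ha1, Ndrg1 and Higd1a were also highest in run 5, at 11.09, 8.59, 7.72 and 6.998. Bhlhe40 and Pfkfb4 instead had their lowest means there. Bhlhe40 had run means of 10.73, 10.91, 10.68, 10.20 and 10.15 (limma adjusted p = 0.00173). Pfkfb4, a regulator of phosphofructokinase, was lowest in run 5 at 10.34 and lay between 10.91 and 10.996 in the other runs (limma adjusted p = 0.0129). The other Pfkfb4 probe, dimmer with a mean of 6.73, did not pass (limma adjusted p = 0.0711). The 13 members that did not pass were Hif1a, Slc2a3, Hk1, Hk2, Pfkm, Pfkp, Pfkfb3, Pgk1, Slc16a3, Vegfa, Bnip3, Mxi1 and Car9, which includes all 4 whose probes lay near or below the median probe (Pgk1, Slc16a3, Pfkfb3 and Bnip3). Other probes of Pfkm, Vegfa and Car9 did pass (limma adjusted p = 0.00348, 0.00764 and 0.0222), so these genes are uncertain.

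**Figure D4:**
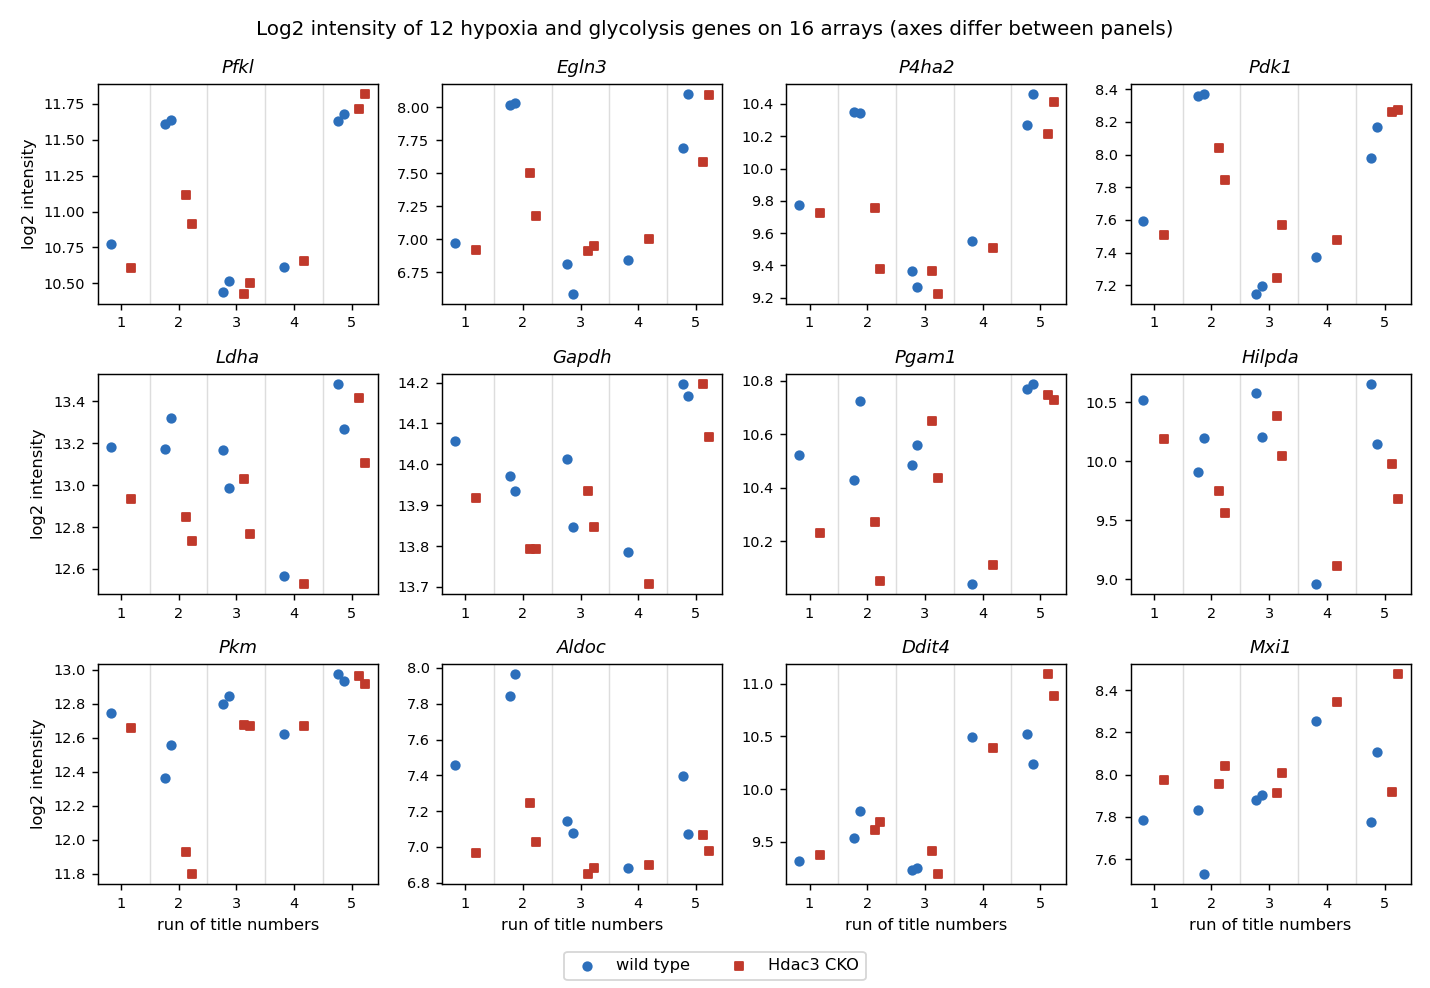
Log2 intensity (vertical axis, a separate scale per panel) of 12 members on each array by run of title numbers (horizontal axis), with wild type as circles and Hdac3 CKO as squares. Pfkl, Egln3, P4ha2 and Pdk1 are high in run 5 and on WT13 and WT14, Ldha and Hilpda are lowest in run 4, and Ddit4 is high in runs 4 and 5.

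Marker levels differed between runs as well. The run means of the osteoblast list were 11.41, 12.19, 10.66, 11.03 and 10.96, those of the macrophage list 10.67, 10.44, 10.89, 11.47 and 11.35, and those of the adipocyte list 8.25, 9.35, 8.05, 8.21 and 8.18. Runs 4 and 5, where Ddit4 and Adm were high, had the highest macrophage means. Runs 2 and 5, where Pfkl and Egln3 were high, had the lowest and the next to highest. The part of the marker levels in these differences was not tested.

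Some pairs of members were highly correlated over all arrays, and inside runs part of this rested on run 2. Over the 16 arrays, 68 of 595 pairs of members passed at an adjusted p under 0.05 (Pearson's r, two-sided permutation test, Benjamini-Hochberg over the pairs), 59 with a positive and 9 with a negative r, and 48 passed with Spearman's rho. The median r over all pairs was 0.17, and 0.26 for deviations from run means. Over pairs of all genes brighter than the median probe it was 0.00 on both scales. The median size of r, whatever its sign, was 0.32 for members and 0.28 for those genes, and 0.34 and 0.30 for deviations from run means. The smallest r that passed was 0.64 in size, which 12.6% of member pairs and 7.87% of pairs of those genes reached, and 16.8% and 10.4% for deviations from run means. For deviations from run means without run 2, the shares were 15.97% and 16.08%, and the median r of members was 0.01. These correlations share arrays and one quantile normalization. The permutations for the 595 pairs reordered all 16 arrays without regard to runs. Their p-values therefore take the arrays of a run as independent, although many members differed between runs. Apart from relations with Pgk1 or Ldha, given further on, pairs were not tested within runs.

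Pfkl and Egln3 had the highest r, 0.95 (rho 0.91, adjusted p = 0.000992 and 0.00198 by permutation). It was 0.97 without the 2 arrays farthest from the median of Pfkl, 0.95 without run 2, and 0.80 for deviations from run means, but 0.25 for those deviations without run 2. Pfkl with P4ha2 gave 0.95 (rho 0.89) and 0.92 within runs, against 0.08 within runs without run 2. Pfkl with Pdk1 gave 0.94 (rho 0.89) and 0.81 within runs, against 0.56 without run 2. The correlations of Pfkl with Egln3 and P4ha2 inside runs thus rest on run 2, where both CKO arrays were below both wild type arrays.

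Gapdh and Ldha had an r of 0.90 (rho 0.91, adjusted p = 0.00149 for both by permutation). It was 0.86 without the 2 arrays farthest from the median of Gapdh, 0.96 without run 2, 0.88 within runs and 0.88 within runs without run 2. Aldoa with Pgam1 gave 0.88 (rho 0.93) and 0.77 within runs, or 0.56 within runs without run 2. Pgam1 with Ldha gave 0.87 (rho 0.84) and 0.77 within runs, or 0.48 without run 2. Pfkl with Ldha gave 0.64 (adjusted p = 0.0624 by permutation over the 595 pairs). Over only the 34 relations with Ldha, given further on, Pfkl passed (adjusted p = 0.0358 by permutation). P4ha2, with an r of 0.68, passed there too (adjusted p = 0.0203), while Egln3 and Pdk1 did not (adjusted p = 0.0640 and 0.113). Adm and Ddit4 gave 0.83 over all arrays (adjusted p = 0.00551 by permutation), but their rho was 0.57 (adjusted p = 0.129 by permutation) and r within runs -0.08, so their relation did not hold inside runs.

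The strongest opposite pair was Pfkfb4 with Ndrg1, a stress-response gene, at -0.85 (rho -0.82, adjusted p = 0.00198 by permutation) and -0.47 within runs (-0.52 without run 2). Bhlhe40 with Ddit4 gave -0.82 (rho -0.65) and -0.77 within runs (-0.91 without run 2), and Mxi1 with Hilpda -0.70 (rho -0.76) and -0.84 within runs (-0.79 without run 2). Hif1a passed with no member. Its highest r over all arrays was 0.65, with Aldoc (adjusted p = 0.0555 by permutation). For deviations from run means, run 2 included, its highest r was 0.88, with Plod2, a value that was not tested. Over all arrays Hif1a and Plod2 gave 0.34.

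Pgk1, phosphoglycerate kinase and a common reference target of HIFs, was the gene chosen for comparison with the other 34 members, but its probe lay near the median probe, which limits it. The members with the highest r were Pgam1 (0.79), Hilpda (0.74), Ldha (0.72), Aldoa (0.72) and Gapdh (0.67), and these 5 of 34 passed over the 34 relations. By Spearman's rho, for deviations from run means, and without the 2 farthest arrays (WT30 and KO16), 0 of 34 passed. The coefficients changed less than the calls. For Aldoa, rho was 0.72 (adjusted p = 0.0522 by permutation), r within runs 0.72 and r without the 2 arrays 0.70. For the other 4, rho was 0.61 to 0.68, r within runs 0.40 to 0.57 and r without the 2 arrays 0.57 to 0.62. With Ldha, chosen after the data were seen, 10 of 34 passed, 9 of 34 within runs, 4 of 34 by rho and 6 of 34 without 2 arrays.

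**Figure D5:**
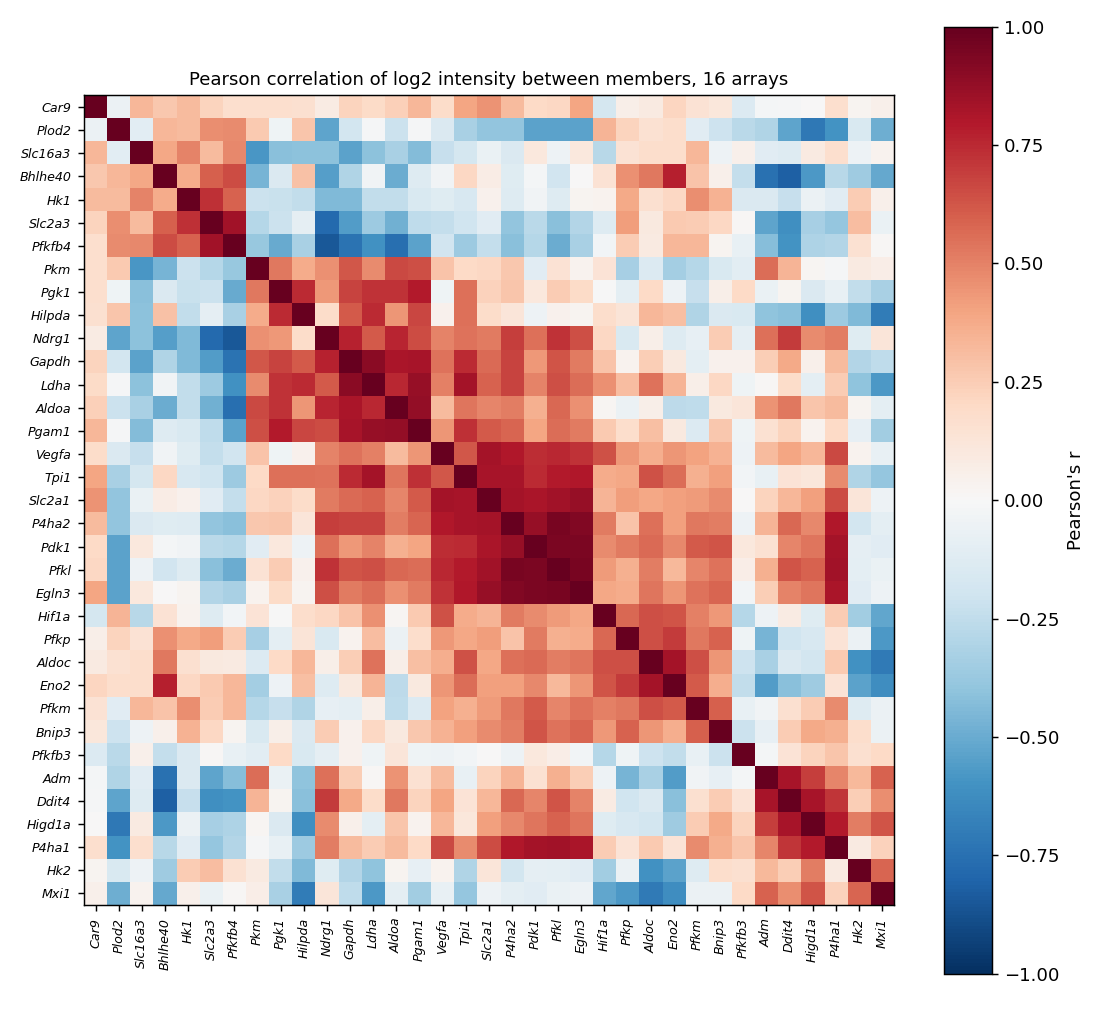
Pearson's r of log2 intensity over 16 arrays for each pair of the 35 measured members (rows and columns in the same order, by average linkage), red for positive and blue for negative. Pfkl, Egln3, P4ha2 and Pdk1 form a block with r up to 0.95, and Gapdh, Ldha, Aldoa and Pgam1 another with r up to 0.90. Between genes of different blocks r was 0.35 to 0.68.

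Of 81 other genes of these pathways, 70 were measured, and with the runs as a block 2 passed for genotype (limma; 0.218% of all probes), with 0 passing without the block. Angptl4, a secreted inhibitor of lipoprotein lipase that HIFs and PPARs induce, was higher in CKO cultures. It read 8.58 to 9.54 in wild type cultures (median 8.93) and 8.69 to 10.03 in CKO cultures (median 9.71), a difference of 0.48 (fold 1.39, block SE 0.093, limma adjusted p = 0.0495). CKO was higher in 4 of 5 runs and lower in run 1, and the genotypes overlapped. Pgam2, the muscle form of phosphoglycerate mutase, was lower, with a difference of -0.55 (fold 0.684, block SE 0.10, limma adjusted p = 0.0359). It read 7.57 to 10.25 in wild type (median 8.48) and 7.05 to 9.06 in CKO cultures (median 8.23), with the highest readings on WT13 and WT14 at 10.25 and 9.91. Without the block the adjusted p of both was 0.932 (limma). Of 31 other settings with the block, Angptl4 passed in 7 and Pgam2 in 10, with limma adjusted p values up to 0.970 for both, and both kept their direction in all. With the runs as a random block the adjusted p was 0.595 and 0.644, and with run means as 5 pairs 0.343 and 0.311 (limma), where 0 of all 25697 probes passed in either fit. Leaving out any array but WT5 or KO7 ended the call of Angptl4, and leaving out any but KO24, WT30, KO32 or WT44 ended that of Pgam2, with adjusted p values up to 0.138 and 0.111 (limma). Without run 2 the differences were 0.49 and -0.38, with limma adjusted p of 0.561 and 0.366. Angptl4 is also an adipocyte product, and the adipocyte list, which had 4 of 7 markers above the median probe, had a mean of 8.19 in wild type (7.91 to 8.78) and 8.72 in CKO cultures (8.17 to 9.98). With the adipocyte marker level as a covariate beside the runs, the differences of Angptl4 and Pgam2 were 0.34 and -0.22 (limma adjusted p = 0.970 for both). With the macrophage marker level they were 0.45 and -0.33 (limma adjusted p = 0.428 for both). Of all probes, 1 passed with the adipocyte and 8 with the macrophage level. The adipocyte level was higher on CKO arrays in every run, so it cannot be told apart from genotype here. The part of either marker level in these differences was not tested.

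The next smallest p values were those of Eno3, the muscle enolase, with a difference of 0.54 (limma adjusted p = 0.0557 with the block), Pcx, pyruvate carboxylase, with 0.24 (adjusted p = 0.077), and Loxl2, a collagen crosslinking enzyme, with -0.25 (adjusted p = 0.0907). Pcx was higher in CKO cultures in 5 of 5 runs, and Loxl2 was lower in 5 of 5. Other HIF targets with the smallest p were Fam162a (-0.36, limma adjusted p = 0.136) and Jmjd6 (-0.12, adjusted p = 0.258). Of 28 other HIF targets 7 had an unadjusted p under 0.05 with the block, 5 of them lower and 2 higher. Of 15 further glycolysis genes it was 3, of 9 pyruvate and lactate genes 2, of 4 pentose phosphate genes 1 (Rpia, -0.14, limma adjusted p = 0.278), and of 14 regulators of HIFs 0, against 11.2% of all probes. Among those regulators the smallest adjusted p was 0.489, for Elob (-0.13), a subunit of the ligase that marks HIFs for destruction. Hk3, the hexokinase of blood cells, had a difference of 0.21 (limma adjusted p = 0.319 with the block). In all, 13 of the 70 had an unadjusted p under 0.05 with the block, and 41 were higher and 29 lower in CKO cultures.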

How the data were processed

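RNA isolated with TRIzol was biotin labelled by the Illumina protocol, per the labels. The deposited values are probe intensities on a linear scale, which the authors had quantile normalized, since the highest was 37892 on each of 16 arrays. The median was 97.1 to 97.2 and the lowest 53.1 to 54.2, so folds of dim probes are compressed. The sources used here name neither software nor background treatment. Intensities were log2 transformed, with no further normalization.

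Platform symbols were updated to RefSeq (GRCm38.p6) for 23962 of 25697 probes, and 1719 are unnamed here. limma 3.58.1 in R 4.3.3 tested genotype without a covariate and with the 5 runs as a block (two-sided), runs, and genotype by run, with Benjamini-Hochberg adjustment over all probes. A new run starts after a gap over 4 in title numbers. Exact tests used 12870 arrangements, or 864 within runs. Correlations used 100000 permutations (smallest possible p 1e-05). The code was tested on simulated data. Members, lists and tests were chosen with earlier results of these data known. Named were Hilpda, Hif1a, Hdac3, members with the smallest p in either fit, the largest SD or the highest r with Pgk1, and other pathway genes with the smallest p. Those picked from pairs were chosen after their values were seen. Sensitivity to background, filtering, variance trend, block and single arrays was examined.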

Additional observations from a re-analysis of the deposited data

Results flagged for a closer look

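In groups of 8 arrays, 2 of 70 groups had an array far from the rest, where chance gives about 1 in 20 groups. Among wild type arrays Hilpda was lowest on WT30 at 8.96, with the next array at 9.91. Among wild type arrays Bnip3 was highest on WT14 at 6.29, with the next at 6.17, on a probe dimmer than most.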

How the results depend on the processing

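Without a covariate, 0 of 35 members passed for genotype under every alternative run. With the runs as a block the count was 0, where 56 of all 25697 probes passed, and 1 (Aldoc) without run 4, where 149 did. Leaving out each array in turn gave 0 to 1, with 12 to 149 of all probes passing. With the block, leaving out each array gave 6 to 14 members at an unadjusted p under 0.05, and 19 to 29 below 0. The share of all probes at that unadjusted p in those fits is not given here, and it was 11.2% with all arrays. The count of members that differed between runs was 22, and 20 to 22 when each array was left out. The count of members that passed with Pgk1 was 5; it was 0 for deviations from run means, 0 without the 2 farthest arrays and 0 with Spearman's rho, although the coefficients of Aldoa stayed at 0.70 to 0.72, and it was 10 with Ldha in place of Pgk1, an alternative chosen after seeing the data, as were leaving out WT13 and WT14, leaving out run 2 for the differences between runs and the macrophage covariate without Fcer1g. With the block, leaving out WT13 and WT14 removes run 2 from the genotype comparison, so it adds nothing to leaving out that run. The causes of these shifts were not tested. With the runs as a random block (correlation 0.21), 0 of 35 passed, 5 had an unadjusted p under 0.05 and 24 were below 0. With run means as 5 pairs, 0 passed, 5 had an unadjusted p under 0.05 and 21 were below 0. No paired analysis by replicate number was possible because the labels' descriptions number all wild type arrays 1 and all CKO arrays 2. Brightness over background limits the readings of Bnip3, Pfkfb3, Pgk1 and Slc16a3.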
